A study of Mus musculus with 6 samples.

Results

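The pairs described here join the 2 ends of the variable (V) gene array of the mouse immunoglobulin heavy chain (Igh) locus, the proximal V genes and the distal V genes. They were measured by chromosome conformation capture carbon copy (5C), in which a forward and a reverse primer, each placed at the end of a HindIII fragment, are joined only where the 2 fragments were ligated in crosslinked chromatin, so that the count of a primer pair stands for contact between its fragments. A pair was taken when one fragment midpoint lay in chr12:114809751-115096374 (proximal V, mm9) and the other in chr12:115723372-117190694 (distal V), whatever its reads. This rule gave 675 of 12656 possible Igh primer pairs (5.33%), from 19 proximal V fragments (9 forward, 10 reverse) and 71 distal V fragments (36 forward, 35 reverse). Their fragments lie 629 to 2373 kb apart, with a median of 1370 kb. The distal V fragments were divided at a gap in the primers into 43 near and 28 far ones, which gave 409 near pairs and 266 far pairs.

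V(D)J recombination joins 1 V gene to a D-J segment, and on a chromosome where they are joined the DNA between them is deleted. The V array is far longer than most enhancer contacts, and in pro-B cells it is known to fold into loops that bring V genes near one another and near the D-J end, a state called locus contraction or compaction. Where both fragments are present, contact between proximal V and distal V is a measure of that folding that involves neither the D-J segments nor the constant region. In resting B cells the count also depends on whether both fragments remain on a rearranged chromosome, which was not tested. No mm9 annotation was used, so fragments carry their primer numbers (FOR, forward; REV, reverse), which increase from the constant region towards the distal end, and no V gene is named. In the RefSeq gene table of another build (GRCm38.p6), the Ighv5 genes take ranks 1 to 62 of 183 Ighv genes along the chromosome and the 92 Ighv1 genes ranks 65 to 183, so the families differ between the ends of the array.

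There were 3 cell types with 2 libraries each, described as biological replicates by the submitters. Resting B cells were CD43- cells taken from spleen with magnetic beads; such cells carry a productively rearranged Igh allele. Pro-B cells came from bone marrow of Rag2 deficient mice, whose V, D and J segments stay unjoined, and were grown with IL7 for 4 days. Mouse embryonic fibroblasts (MEF), which do not use the locus, came from culture. 5C measures no expression, so the cell types rest on the labels alone. Cell type, rearrangement, Rag2 deficiency and culture go together in this design and cannot be told apart.

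Each library held 20580457 to 24191175 valid read pairs, and the 675 pairs took 0.662% and 0.714% of the Igh reads in the resting B libraries, 0.633% and 1.31% in the pro-B libraries, and 0.692% and 0.951% in MEF. Of the 675 pairs, 65 and 68 had no read in resting B libraries, 19 and 106 in pro-B libraries, and 18 in each MEF library. Where a pair has no read, up to 3 reads are still compatible with counting error. The pro-B libraries differed most between replicates. Their log2 counts over the 675 pairs correlated with r = 0.70, against 0.91 in resting B cells and 0.90 in MEF, as a description over pairs that share a library and its depth. Levels below are CPM, the reads of a library relative to its size after TMM scaling, which sets the libraries level over the bulk of tested pairs, and a log2 fold is the estimate of edgeR's quasi-likelihood fit with its standard error (SE), with Benjamini-Hochberg adjustment over all features of the same kind in the locus.

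Summed over all 675 pairs, contact across the V array was lowest in resting B cells, but the differences between cell types did not pass the test. The sum was 5285 and 6261 CPM in resting B cells, 7440 and 11602 CPM in pro-B cells, and 8931 and 7350 CPM in MEF. Both resting B libraries lay below the other 4, and the pro-B and MEF libraries overlapped. Resting B over pro-B gave a log2 fold of -0.72 ± 0.28 (SE, n = 2 libraries each, edgeR adjusted p = 0.0549 over 45 sums of region pairs). Resting B over MEF gave -0.50 ± 0.28 (adjusted p = 0.148), and pro-B over MEF 0.23 ± 0.28 (adjusted p = 0.728). Among the 45 sums, 17.8% were lower and 20% higher in resting B over pro-B, 13.3% and 31.1% in resting B over MEF, and 0% and 13.3% in pro-B over MEF. Scaled to the gene desert on chromosome 5, the log2 fold of resting B over MEF was 0.0021 (adjusted p = 0.998). Taken relative to the reads that both regions had with that desert, resting B over pro-B gave -0.21 (limma adjusted p = 0.789) and resting B over MEF -1.42 (adjusted p = 0.0246). The shares of both regions in the reads between chromosomes were lowest in MEF and highest in pro-B cells. Dividing by them lowers the fold over MEF and raises that over pro-B.

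One proximal V fragment carried much of this sum. FOR 126 (chr12:114823610-114829182), one of the 2 fragments nearest the D-J end of the proximal V genes, held 41.8% and 48.5% of the reads in the resting B libraries, 30.3% and 50.6% in the pro-B libraries, and 32.2% and 31.8% in MEF. Its own reads with distal V came to 2210.0 and 3034 CPM in resting B cells, 2254 and 5876 CPM in pro-B cells, and 2873 and 2338 CPM in MEF, so the groups overlapped. It did not pass the test, with log2 folds of -0.63 ± 0.49 for resting B over pro-B (edgeR adjusted p = 0.341) and 0.01 ± 0.49 for resting B over MEF (adjusted p = 0.990). FOR 126 was also prominent in reads with the other chromosome, where it ranked 3 of 225 Igh fragments and held 62.5% to 72.0% of the desert reads of proximal V in every library. How far its level reflects the efficiency of 1 primer was not tested.

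Without FOR 126, an alternative chosen after its values were seen, the other 640 pairs were lower in resting B cells than in both other cell types. Their sum was 3075 and 3227 CPM in resting B cells, 5185 and 5726 CPM in pro-B cells, and 6058 and 5012 CPM in MEF. The log2 fold was -0.79 ± 0.22 for resting B over pro-B (edgeR adjusted p = 0.0192) and -0.81 ± 0.23 for resting B over MEF (adjusted p = 0.0132). Pro-B over MEF gave -0.02 ± 0.22 (adjusted p = 0.994), and their libraries overlapped. Counting each of the 675 pairs once, as the mean log2 CPM with 1 read added, also put resting B cells lowest: 0.49 and 0.48 in the resting B libraries, 1.61 and 0.80 in the pro-B libraries, and 1.80 and 1.74 in MEF. On that scale resting B cells differed by -0.72 ± 0.31 from pro-B cells (limma adjusted p = 0.0452) and by -1.29 ± 0.31 from MEF (adjusted p = 0.00177), and pro-B cells by -0.57 ± 0.31 from MEF (adjusted p = 0.168). Most region pairs passed in the comparisons of resting B cells on that scale. Of 45, 14 were lower and 20 higher over pro-B, and 12 lower and 15 higher over MEF. In pro-B over MEF 8 were lower and 1 higher.

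**Figure D1:**
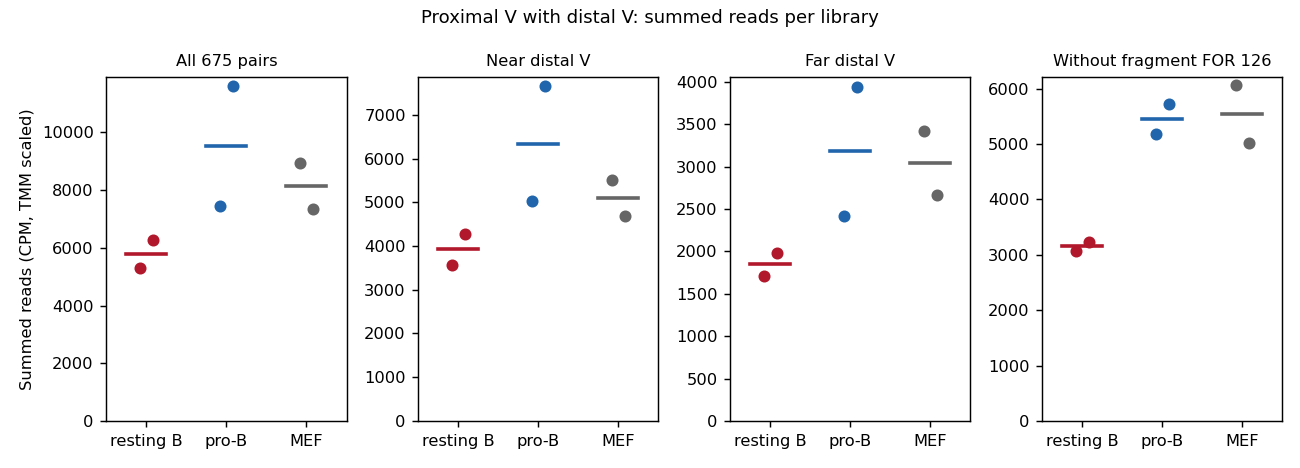
Summed reads of proximal V with distal V in CPM (vertical axes start at 0 and differ between panels), with 1 point per library and a line at the mean of each cell type, for all 675 pairs, for near and far distal V, and without fragment FOR 126. Without FOR 126 the resting B libraries (3075 and 3227 CPM) lie apart from the other 4 (5012 to 6058 CPM).

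With near and with far distal V alike, resting B cells had the lowest sums. With near distal V, the sum was 3572 and 4274 CPM in resting B cells, 5027 and 7658 CPM in pro-B cells, and 5509 and 4686 CPM in MEF. With far distal V, it was 1714 and 1986 CPM in resting B cells, 2413 and 3944 CPM in pro-B cells, and 3422 and 2664 CPM in MEF. The resting B libraries were below the other 4 in both sets. No comparison passed the test: resting B over pro-B gave -0.69 ± 0.27 for near (edgeR adjusted p = 0.0567 over 55 sums) and -0.78 ± 0.30 for far distal V (adjusted p = 0.056), and resting B over MEF -0.38 ± 0.27 (adjusted p = 0.239) and -0.72 ± 0.29 (adjusted p = 0.0694). Pro-B over MEF gave 0.32 ± 0.27 for near (adjusted p = 0.556) and 0.06 ± 0.29 for far distal V (adjusted p = 0.938). Among the 55 sums, 21.8% were lower and 20% higher in resting B over pro-B, 16.4% and 32.7% in resting B over MEF, and 0% and 9.09% in pro-B over MEF. The far set over pro-B cells passed with the distance decay of each library removed (-1.85, adjusted p = 0.0374), and both sets over MEF passed without FOR 126 (-0.73, adjusted p = 0.0225, and -0.94, adjusted p = 0.0115).

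Divided by the distance between the fragments, the longest contacts were the only ones of 4 bins past the test with all pairs, whereas without FOR 126 lower reads passed in 3 bins in each comparison of resting B cells. At 2000 to 2500 kb (78 pairs), the sum was 437 and 509 CPM in resting B cells, 721 and 1211 CPM in pro-B cells, and 885 and 752 CPM in MEF. The log2 fold of resting B over pro-B was -1.03 ± 0.31 (edgeR adjusted p = 0.0403 over 88 sums of a region pair in a separation bin, of which 17% were lower and 14.8% higher). In the bins from 500, 1000 and 1500 kb that comparison gave -0.86, -0.71 and -0.52 (adjusted p of 0.0632, 0.0527 and 0.186), so the folds did not grow steadily with distance. Resting B over MEF gave -0.25, -0.55, -0.51 and -0.79 from the shortest to the longest bin, none past the test (10.2% of the 88 sums were lower and 23.9% higher). Pro-B over MEF gave 0.62, 0.17, 0.01 and 0.24 (adjusted p of 0.249 to 0.998, with 0% of the sums lower and 4.55% higher). The call at 2000 to 2500 kb was absent with total Igh reads or desert reads as library size, and without any one of the MEF or resting B libraries. Over the 611 tested pairs, the fold of resting B over pro-B had a correlation of -0.06 with separation and that of resting B over MEF -0.14, as a description of pairs that share libraries.

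Set against other Igh pairs at the same separation, the mean log2 count of pairs across the V array was low in resting B cells and high in the others, while summed reads gave a mixed picture. Within each library, the log2 count of each pair (1 read added) was compared with the mean of all other Igh pairs in the same 100 kb bin of separation, of which each bin held at least 162. The mean difference was -0.73 and -0.77 in the resting B libraries, 0.54 and 0.44 in the pro-B libraries, and 0.67 and 0.66 in MEF. For far distal V it was -1.13 and -1.08 in the resting B libraries, 0.71 and 0.59 in the pro-B libraries, and 0.78 and 0.87 in MEF, and for near distal V -0.48 and -0.56, 0.43 and 0.34, and 0.60 and 0.52 in the same cell types. On this scale, each resting B value was below 0 and each value of the other 4 libraries above it. In summed reads, where few pairs weigh most, the ratio of observed to matched reads was 0.539 and 0.347 in the resting B libraries, 1.34 and 1.45 in the pro-B libraries, and 1.21 and 1.52 in MEF. For near distal V that ratio was above 1 in every library, at 1.17 and 1.31 in the resting B libraries, 1.38 and 1.68 in the pro-B libraries, and 1.48 and 1.70 in MEF. For far distal V it was 0.253 and 0.135 in the resting B libraries, 1.25 and 1.14 in the pro-B libraries, and 0.942 and 1.29 in MEF, so MEF replicate 1 was below 1 as well. The pairs used for comparison include those of the constant region with distal V, whose summed reads were higher in resting B cells (12851 and 13619 CPM, against 4676 and 7572 CPM in pro-B cells and 6755 and 5564 CPM in MEF). They also include the 3' regulatory region with distal V (28922 and 74833 CPM, against 6698 and 10929 CPM and 14164 and 5973 CPM). Matched reads for far distal V were 161463 and 318974 in the resting B libraries, 33696 and 81278 in pro-B, and 62153 and 56788 in MEF. The far distal V ratios thus depend on high matched reads in resting B cells as well as on the members' own reads.

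Single primer pairs were mostly shifted towards lower reads in resting B cells, with few past the test. Of the 675 pairs, 611 held at least 10 reads in at least 2 libraries and were tested. In resting B over pro-B, 38 (6.22%) were lower and 3 (0.491%) higher, against 5.16% lower and 2.74% higher among all 11940 tested Igh pairs. The share of lower calls was thus near that of the whole locus. Other tested Igh pairs in the same range of separation had 2.89% lower and 1.94% higher, and middle V with distal V 8.84% and 0.301%. The median log2 fold was -0.94, against 0.01 over all tested Igh pairs. Both resting B libraries lay below both pro-B libraries for 253 pairs (41.4%) and above them for 81 (13.3%), against 29% and 33% of all tested Igh pairs. Over MEF, 1 pair was lower and none higher (edgeR), against 0.385% and 0.369% of all tested Igh pairs. At an unadjusted edgeR p under 0.05, 122 were lower and 0 higher, against 1336 and 1043 of the 11329 other tested Igh pairs. DESeq2 gave 68 lower, and no share over the locus was taken with it. The median edgeR fold over MEF was -1.08, against -0.02. Both resting B libraries lay below both MEF libraries for 381 pairs (62.4%) and above them for 35 (5.73%), against 35.9% and 33.9% of all tested Igh pairs. In pro-B over MEF no pair passed in either direction, as for all tested Igh pairs (edgeR, 0% and 0%), and the median was -0.09, against 0.03. At an unadjusted edgeR p under 0.05, 11 were higher and 14 lower, against 585 and 484 of the 11329 other tested Igh pairs. DESeq2 gave 1 higher and 3 lower, again without a share over the locus. The pro-B and MEF libraries did not overlap for 162 lower (26.5%) and 105 higher pairs (17.2%), against 22.8% and 19.3% of all tested Igh pairs.

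How many of the 611 pairs lay below 0 depended on the library size used. In resting B over pro-B it was 70.5% with TMM, 65.3% with total Igh reads and 64.5% with desert reads, and in resting B over MEF 82.3%, 76.4% and 68.9%. Total Igh reads and desert reads moved the median of all tested Igh pairs to 0.28 and 0.29 in resting B over pro-B and to 0.20 and 0.45 in resting B over MEF. A change of library size shifts all pairs alike, so it says nothing about the members relative to the rest of the locus. The number of calls did depend on single libraries. The 38 lower pairs of resting B over pro-B became 0 without any one of the MEF or resting B libraries, 205 without pro-B replicate 1 and 139 without pro-B replicate 2, and the 3 higher ones became 0 without any one of the MEF or resting B libraries, 115 without pro-B replicate 1 and 24 without pro-B replicate 2. The 1 lower pair of resting B over MEF became 0 without any one of the MEF or resting B libraries, and 146 and 149 without pro-B replicate 1 and 2.

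**Figure D2:**
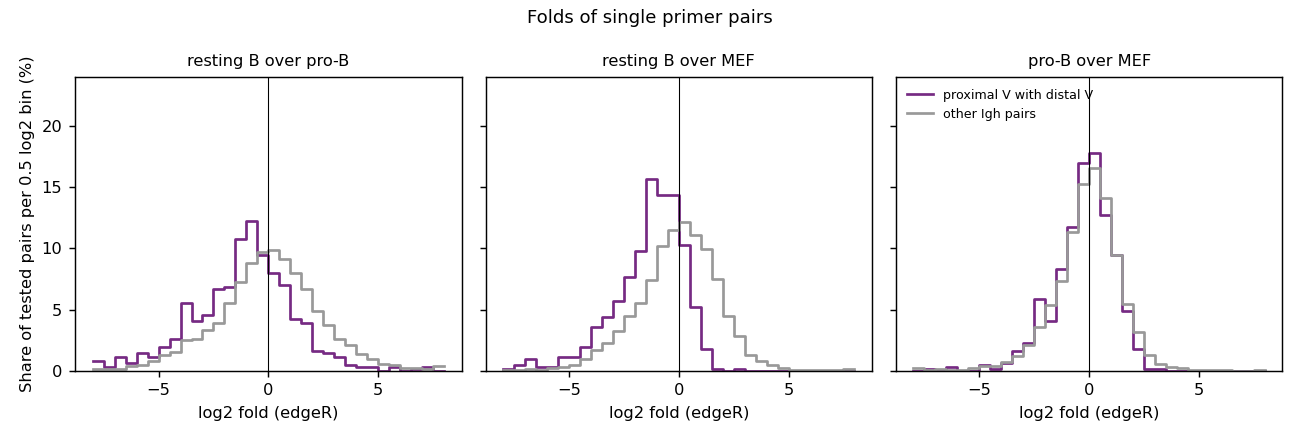
Share of tested primer pairs (vertical axis, %) in bins of 0.5 log2 units of the edgeR fold (horizontal axis, folds beyond the axis placed in the end bins) for the 611 tested pairs of proximal V with distal V and for all other tested Igh pairs. In both comparisons of resting B cells the curve of proximal V with distal V lies to the left (medians of -0.94 and -1.08), and in pro-B over MEF the curves nearly coincide.

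Of the 19 proximal V fragments, 9 or 10 gave fewer reads with distal V in resting B cells by the test, and none gave more. Reads of each fragment were summed over all its partners in the opposite region and tested together with all 2017 sums of 1 Igh fragment with 1 region. Lower fragments numbered 9 in resting B over pro-B and 10 in resting B over MEF, against 15.7% and 12% of the 2017 sums, and none was lower in pro-B over MEF (0.0496% of the sums). No proximal V fragment was higher in any comparison, against 17.7%, 20.1% and 1.74% of the sums. The median log2 fold of the 19 was -0.85, -0.96 and 0.03 in these 3 comparisons.

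FOR 174 (chr12:115011448-115018809), in the D-J-distant part of proximal V, had the smallest p of the proximal V fragments in both comparisons of resting B cells. It had 42.8 and 45.4 CPM with distal V in resting B cells, 218 and 272 CPM in pro-B cells, and 216 and 186 CPM in MEF. The log2 fold was -2.48 ± 0.27 over pro-B (edgeR adjusted p = 0.00295) and -2.19 ± 0.27 over MEF (adjusted p = 0.0043), with the resting B libraries far below the rest. FOR 186 (chr12:115060699-115061882), a fragment of few reads, had 4.69 and 3.66 CPM in resting B cells, 28.9 and 30.6 CPM in pro-B cells, and 15.9 and 15.6 CPM in MEF, with folds of -2.83 ± 0.39 (adjusted p = 0.00446) and -1.91 ± 0.38 (adjusted p = 0.012).

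Its direct neighbour REV 187 (chr12:115061883-115074065) moved the same way at a much higher level, although it has the opposite primer orientation and other partners. It had 248 and 269 CPM in resting B cells, 932 and 764 CPM in pro-B cells, and 616 and 721 CPM in MEF. The folds were -1.71 ± 0.27 over pro-B (edgeR adjusted p = 0.00637) and -1.37 ± 0.27 over MEF (adjusted p = 0.0119). Further towards the D-J end, REV 153 (chr12:114919053-114921024) had 43.5 and 53.0 CPM in resting B cells, 128 and 175 CPM in pro-B cells, and 112 and 115 CPM in MEF. REV 161 (chr12:114950757-114952521) had 53.6 and 53.8 CPM in resting B cells, 120.2 and 130.4 CPM in pro-B cells, and 122 and 153 CPM in MEF. Both were lower in resting B cells, by folds of -1.65 ± 0.28 and -1.22 ± 0.25 over pro-B (adjusted p of 0.00732 and 0.0121) and of -1.23 ± 0.27 and -1.36 ± 0.25 over MEF (adjusted p of 0.0177 and 0.00991).

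Among proximal V fragments with more reads, folds were smaller for FOR 147 and REV 171. FOR 147 (chr12:114897147-114900764), the forward fragment with the most reads after FOR 126, had 374 and 422 CPM in resting B cells, 783 and 652 CPM in pro-B cells, and 871 and 677 CPM in MEF. It was lower over MEF (-0.96 ± 0.28, edgeR adjusted p = 0.0403) and did not pass over pro-B (-0.85 ± 0.28, adjusted p = 0.054). REV 171 (chr12:114996747-115006242), named here after its values were seen as the proximal V fragment with the highest fold over pro-B, had 566 and 546 CPM in resting B cells, 388 and 360.0 CPM in pro-B cells, and 685 and 452 CPM in MEF. Its folds of 0.57 ± 0.29 and -0.03 ± 0.29 did not pass (adjusted p of 0.170 and 0.943). It lies beside FOR 174 in the primer order, so 2 neighbouring fragments gave opposite signs over pro-B cells.

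On the distal side, 14 of 42 tested near distal V fragments and 8 of 28 far ones were lower in resting B over pro-B, and 7 and 6 were lower in resting B over MEF. None was higher in either, and none passed in pro-B over MEF. Among all 2017 sums of 1 fragment with 1 region, 15.7% were lower and 17.7% higher in resting B over pro-B. In resting B over MEF 12% were lower and 20.1% higher, and in pro-B over MEF 0.0496% and 1.74%. Of the 43 near fragments, FOR 451 stayed under the count filter and was not tested. The median log2 folds were -0.57 (near) and -0.70 (far) over pro-B and -0.53 and -0.74 over MEF, and single fragments ranged from -3.60 to 1.14 over pro-B and from -2.82 to 0.87 over MEF. The fragments past the test were spread along the whole distal array.

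REV 450 (chr12:115938466-115941645) and REV 428 (chr12:115848051-115855284) in near distal V had the smallest p of all member fragments. REV 450 had 16.5 and 14.5 CPM with proximal V in resting B cells, 159 and 176 CPM in pro-B cells, and 117 and 103 CPM in MEF, with folds of -3.43 ± 0.27 over pro-B and -2.82 ± 0.26 over MEF (edgeR adjusted p of 0.00267 and 0.00392). REV 428 had 12.7 and 11.9 CPM in resting B cells, 166 and 128 CPM in pro-B cells, and 61.7 and 67.7 CPM in MEF, with folds of -3.58 ± 0.29 and -2.39 ± 0.28 (adjusted p of 0.00267 and 0.00392). In both, the resting B libraries were close together and far below every other library.

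REV 528 (chr12:116286772-116293346) had 7.08 and 6.34 CPM in resting B cells, 57.2 and 106 CPM in pro-B cells, and 48.8 and 41.2 CPM in MEF, with folds of -3.60 ± 0.41 and -2.74 ± 0.40 (edgeR adjusted p of 0.00319 and 0.00543). REV 464 (chr12:115993659-116000828), with more reads, had 68.2 and 83.4 CPM in resting B cells, 315 and 377 CPM in pro-B cells, and 206 and 165 CPM in MEF, with folds of -2.19 ± 0.29 and -1.29 ± 0.28 (adjusted p of 0.0039 and 0.0157). FOR 436 (chr12:115880011-115885590) had 28.7 and 23.2 CPM in resting B cells, 136 and 96.1 CPM in pro-B cells, and 47.1 and 63.2 CPM in MEF, with folds of -2.16 ± 0.33 and -1.09 ± 0.32 (adjusted p of 0.00549 and 0.0398). These fragments had intermediate levels in MEF, which their choice by p over pro-B favours.

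In far distal V, FOR 702 (chr12:116864979-116868374) had 2.56 and 2.50 CPM in resting B cells, 17.3 and 26.5 CPM in pro-B cells, and 10.2 and 20.1 CPM in MEF. Its folds were -3.11 ± 0.53 over pro-B (edgeR adjusted p = 0.00741) and -2.59 ± 0.52 over MEF (adjusted p = 0.0122). It is the lowest of the named fragments in reads, and its resting B levels lay below every other library.

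Among the 3 distal V fragments with the most reads, 1 passed, in 1 comparison. REV 545 (chr12:116342486-116353413) had 499 and 723 CPM in resting B cells, 627 and 1067 CPM in pro-B cells, and 793 and 600.02 CPM in MEF, and REV 435 (chr12:115877939-115880010) had 490.0 and 696 CPM in resting B cells, 145 and 504 CPM in pro-B cells, and 437 and 364 CPM in MEF. Neither passed in resting B over pro-B (-0.47 ± 0.37, edgeR adjusted p = 0.349, and 0.87 ± 0.55, adjusted p = 0.254) or over MEF (-0.19 ± 0.37, adjusted p = 0.708, and 0.57 ± 0.55, adjusted p = 0.445). FOR 399 (chr12:115776652-115778814) had 240.3 and 226 CPM in resting B cells, 521 and 990 CPM in pro-B cells, and 569 and 218 CPM in MEF. It was lower over pro-B (-1.70 ± 0.52, adjusted p = 0.0432), where the libraries did not overlap, and not over MEF (-0.75 ± 0.51, adjusted p = 0.279), where they did.

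**Figure D3:**
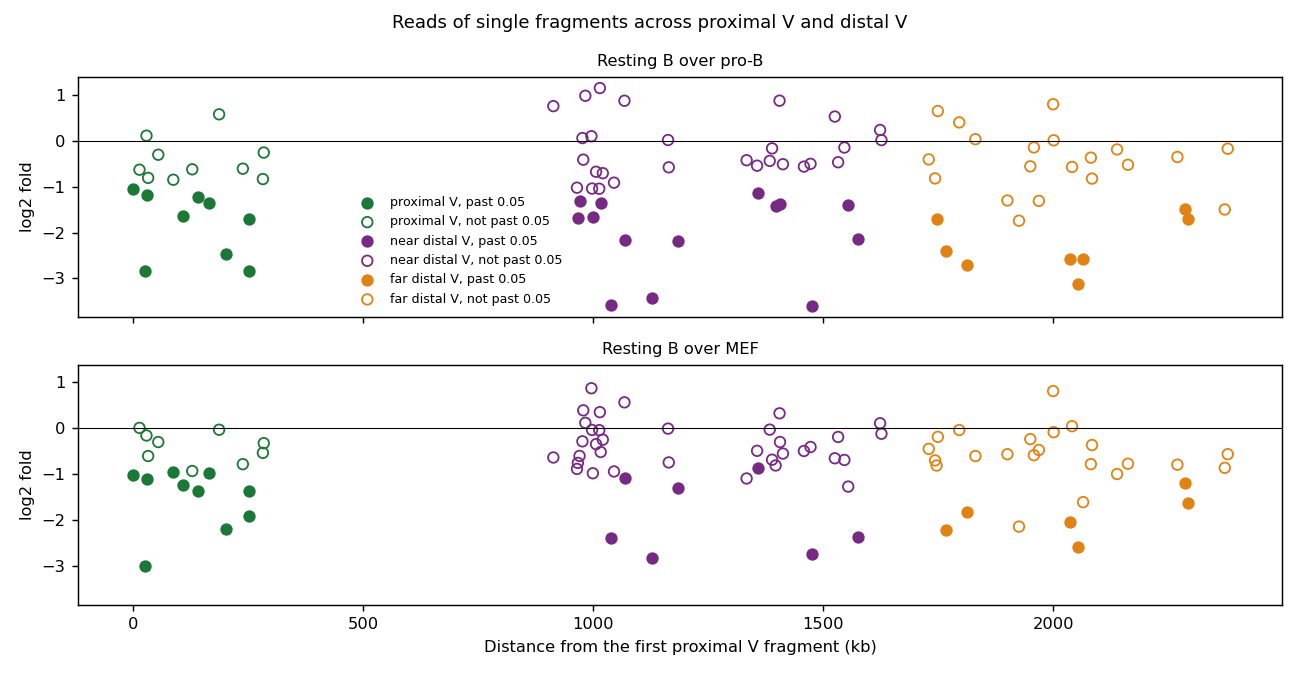
Log2 folds from edgeR (vertical axis) of the reads of each of 89 tested fragments with the opposite end of the V array, by distance from the first proximal V fragment in kb (horizontal axis), for resting B over pro-B and resting B over MEF; filled points passed an adjusted p of 0.05. All filled points lie below 0, and they occur in proximal, near distal and far distal V.

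These fragment counts rested on which libraries were in the fit. Of 89 tested fragments, 31 were lower in resting B over pro-B and 23 in resting B over MEF, against 15.7% and 12% of the 2017 sums. Over pro-B the count was 0 without either resting B library, 27 or 19 when MEF replicate 1 or 2 was left out, and 52 or 36 when pro-B replicate 1 or 2 was. Over MEF it was 1 without either resting B library, 4 or 7 when MEF replicate 1 or 2 was left out, and 47 without either pro-B library. With desert reads as library size, 8 and 2 fragments were lower, and with total Igh reads 18 and 10.

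The same fragments were next compared by their reads with other partners. With the constant region, 77 of 89 fragments had a fold above 0 in resting B over pro-B and 76 of 89 in resting B over MEF, with medians of 0.91 and 0.79. The medians of their folds across the V array were -0.71 and -0.65. In 88 of 89 fragments over pro-B, and 87 of 89 over MEF, the fold across the array was below the fold with the constant region. Of the 31 fragments lower across the array over pro-B, 0 were lower with the constant region and 5 were higher with it (FOR 165, REV 514, FOR 556, REV 610 and FOR 769). Among all 2017 sums of 1 fragment with 1 region, 15.7% were lower and 17.7% higher. Gains with the constant region past the test were more frequent among the fragments not lower across the array. Over 89 fragments, the folds across the array and with the constant region had a correlation of 0.64 over pro-B and 0.50 over MEF. For FOR 769, in far distal V, the fold was -1.70 across the array and 1.12 with the constant region (edgeR adjusted p of 0.0143 and 0.0165).

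Several fragments with strong decreases were lower with other partners too. Over pro-B cells, REV 450 had resting B folds of -3.93 ± 0.42 within distal V, -2.96 ± 0.29 with middle V, -3.43 ± 0.27 with proximal V and -3.12 ± 0.50 with the V-D interval, all past the test (edgeR adjusted p of 0.00267 to 0.00639). With the constant region its fold was -0.57 ± 0.36 and did not pass (adjusted p = 0.251). REV 428 had folds of -5.14 ± 0.53, -3.92 ± 0.47, -3.58 ± 0.29 and -3.06 ± 0.54 with the same 4 partners and -0.98 ± 0.32 with the constant region (adjusted p = 0.0507). REV 428 was also lower with 2 regions outside the V array, the 3' regulatory region (-1.98 ± 0.57, adjusted p = 0.0359) and the flank beyond distal V (-1.88 ± 0.47, adjusted p = 0.0231). With the 3' regulatory region, REV 464 was lower by a fold of -1.18 ± 0.30 (edgeR adjusted p = 0.0244) and REV 187 by one of -1.62 ± 0.33 (adjusted p = 0.0116), and REV 187 was lower with D-J (-1.09 ± 0.27, adjusted p = 0.0208). Decreases of these fragments were therefore limited neither to contacts between proximal V and distal V nor to the V array.

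Reads of the same fragments with the gene desert on chromosome 5, joined between chromosomes, served as a background. Between resting B and pro-B cells, 1 of 19 proximal V, 5 of 42 near and 3 of 28 far distal V fragments were lower with the desert and none higher, against 6.25% lower and 2.68% higher among 224 Igh fragments (edgeR). Medians were -0.14, -0.47 and -0.39 log2 units, against -0.05 over all 224. Over MEF, 1 proximal V fragment was lower (0.446% of the 224) and the medians were -0.13, -0.11 and -0.16. In pro-B over MEF none passed (0% of the 224 in each direction). These folds rest on TMM factors of the desert sums. Of unscaled reads between chromosomes, proximal V held 5.75% and 5.90% in resting B, 6.63% and 8.99% in pro-B, and 2.84% and 3.77% in MEF. Near distal V held 8.22% and 9.25%, 10.7% and 16.1%, and 3.86% and 4.69% in the same cell types. Far distal V held 2.52% and 2.52%, 2.73% and 4.37%, and 1.12% and 1.53%.

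The decrease with the desert was strongest in some of the same fragments. REV 428 had a desert fold of -2.52 in resting B over pro-B and REV 450 one of -2.22 (edgeR adjusted p = 0.00531 for both), and 9 of the 31 fragments lower across the array were lower with the desert. These 9 are all of the 89 fragments that were lower with the desert (1 proximal V, 5 near and 3 far distal V). Over 89 fragments, the fold across the array and the fold with the desert had a correlation of 0.68 in resting B over pro-B and 0.67 in resting B over MEF, as a description of fragments that share libraries and primers. Desert reads are few in pro-B replicate 1, where reads between chromosomes made up 0.554% of the library, against 2.02% to 3.41% in the other 5. The part of fragment recovery in the folds of single fragments was not tested.

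**Figure D4:**
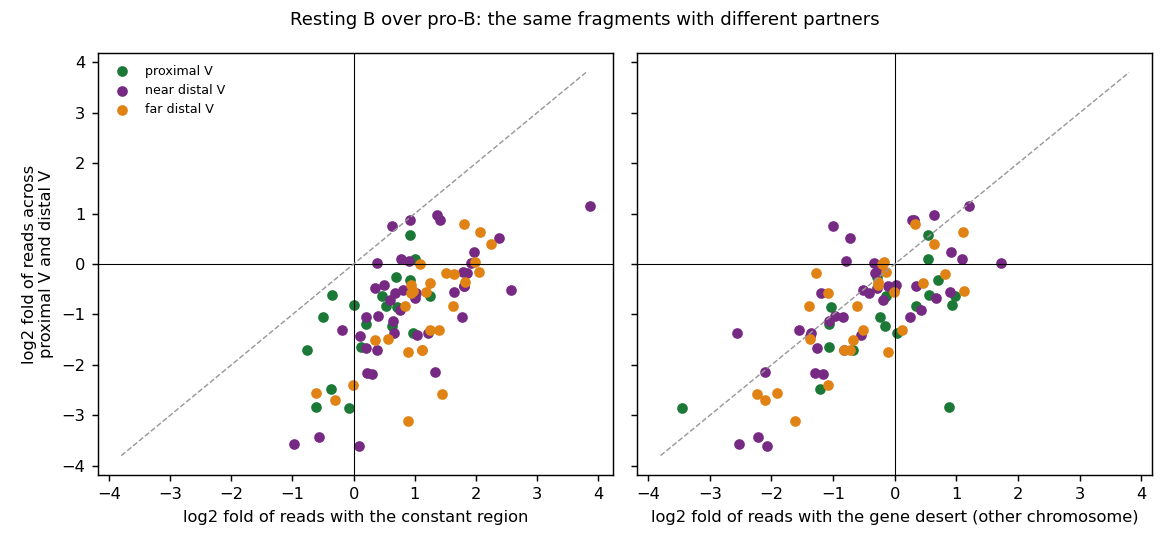
Log2 fold of resting B over pro-B for each of 89 fragments across the V array (vertical axes) against its fold with the constant region (left) and with the gene desert (right); the dashed line marks equal folds. In the left panel 88 of 89 points lie below the dashed line (r = 0.64), and in the right panel the points follow it loosely (r = 0.68).

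The single pairs past the test in resting B over pro-B were spread over many fragments. The 38 lower pairs lay a median of 1334 kb apart and had folds of -2.13 to -6.77. In 37 of them the mean of the MEF libraries lay between those of resting B and pro-B cells. Choosing pairs by a large difference between those cell types favours MEF in between, and no share over all tested pairs was taken. FOR 126 and REV 187 each took part in 6 of them, and FOR 165 and FOR 174 in 5 each. On the distal side FOR 556, REV 428, REV 464 and REV 628 took part in 4 each. FOR 126, whose summed reads did not pass, was thus part of several lower pairs.

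FOR 126 with REV 450, 1112 kb apart, was the 1 pair past the test in both comparisons of resting B cells. It had 269 and 255 reads in the resting B libraries, 2005 and 3719 in the pro-B libraries, and 1340 and 2035 in MEF. The folds were -3.56 ± 0.40 over pro-B (edgeR adjusted p = 0.0189) and -2.72 ± 0.39 over MEF (adjusted p = 0.044). FOR 126 with REV 428 had 204 and 151 reads in the resting B libraries, 1660 and 2104 in the pro-B libraries, and 685 and 1142 in MEF, with a fold of -3.57 ± 0.41 over pro-B (adjusted p = 0.019).

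FOR 436 with REV 187, which shares no fragment with those pairs, had 24 and 30 reads in the resting B libraries, 717 and 542 in the pro-B libraries, and 158 and 302 in MEF, with a fold of -4.73 ± 0.63 over pro-B (edgeR adjusted p = 0.0213). FOR 174 with REV 545 had 319 and 300 reads in the resting B libraries, 1454 and 3132 in the pro-B libraries, and 1403 and 1886 in MEF, with a fold of -2.99 ± 0.42 (adjusted p = 0.0214). The summed reads of REV 545 with proximal V did not pass, as given above. FOR 174 with REV 512 had 2 and 1 reads in the resting B libraries, 113 and 213 in the pro-B libraries, and 53 and 79 in MEF. Its 3 reads in resting B cells against 326 in pro-B cells give a ratio of 0.00831 per scaled library (95% exact interval 0.00171 to 0.0245, counting error only; edgeR adjusted p = 0.0241).

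The other named lower pairs had the same order of cell types, which their choice by the difference over pro-B favours. FOR 399 with REV 129 had 34 and 26 reads in the resting B libraries, 327 and 1352 in the pro-B libraries, and 180 and 167 in MEF, and FOR 399 with REV 187 had 417 and 456 reads in the resting B libraries, 1697 and 5386 in the pro-B libraries, and 974 and 1200 in MEF. FOR 126 with REV 528 had 128 and 107 reads in the resting B libraries, 681 and 2033 in the pro-B libraries, and 513 and 759 in MEF. FOR 556 with REV 153 had 6 and 8 reads in the resting B libraries, 139 and 233 in the pro-B libraries, and 123 and 194 in MEF, and FOR 147 with REV 428 had 44 and 49 reads in the resting B libraries, 715 and 410 in the pro-B libraries, and 174 and 392 in MEF. Their folds over pro-B ran from -3.08 (FOR 399 with REV 187) to -4.85 (FOR 399 with REV 129), with edgeR adjusted p of 0.022 to 0.0279.

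The 3 higher pairs had few reads in pro-B cells. FOR 513 with REV 171 had 431 and 379 reads in the resting B libraries, 36 and 20 in the pro-B libraries, and 113 and 212 in MEF, with a fold of 3.62 ± 0.73 over pro-B (edgeR adjusted p = 0.0353). FOR 685 with REV 125 had 69 and 134 reads in the resting B libraries, 3 and 4 in the pro-B libraries, and 29 and 72 in MEF, with a fold of 4.69 ± 1.09 (adjusted p = 0.0465). FOR 165 with REV 410 had 66 and 93 reads in the resting B libraries, 0 and 1 in the pro-B libraries, and 30 and 88 in MEF. Its 159 reads against 1 give a ratio of 144 (95% exact interval 25.4 to 5708, counting error only; adjusted p = 0.0361). In all 3 pairs the MEF libraries lay above the pro-B libraries, which the choice of these pairs also favours.

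None of the 5 pairs with the most reads passed the test. FOR 126 with REV 435 led with 418 and 616 CPM in resting B cells, 111 and 439 CPM in pro-B cells, and 368 and 314 CPM in MEF. FOR 126 with REV 403, with REV 545 and with REV 499 averaged 187, 186 and 163 CPM over the 6 libraries, and these 4 pairs of FOR 126 did not pass in any comparison (edgeR adjusted p of 0.366 to 0.876). The remaining one, FOR 661 with REV 129, had 474 and 352 reads in the resting B libraries, 1585 and 7053 in the pro-B libraries, and 8897 and 1215 in MEF. Its replicates differed several-fold in MEF and in pro-B cells, and its fold of -3.43 ± 1.12 over pro-B did not pass (adjusted p = 0.0954).

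**Figure D5:**
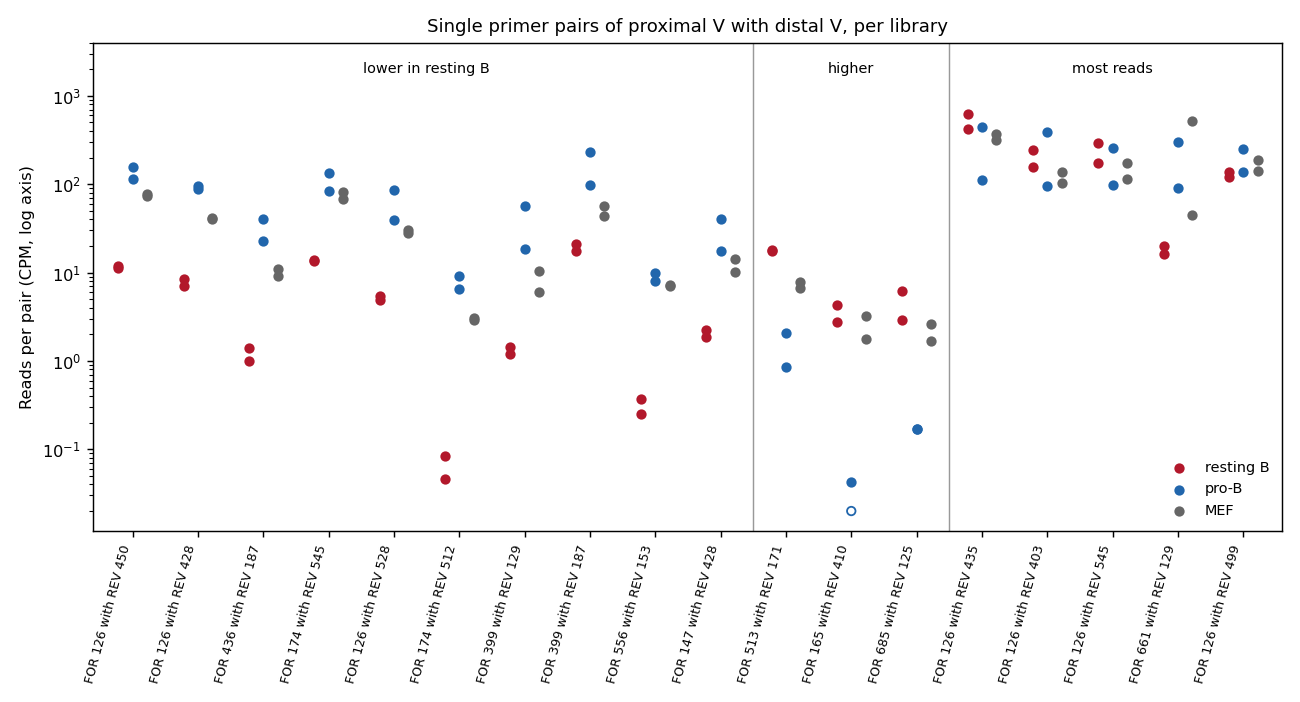
Reads per library in CPM (log axis) of the 10 lower and 3 higher pairs named for resting B over pro-B and of the 5 pairs with the most reads, with 2 points per cell type; the open circle marks 0 reads in 1 pro-B library and is placed at the foot of the axis. In the lower pairs the MEF points lie between the resting B and pro-B points, and in the higher pairs pro-B is lowest. The lower and higher pairs were chosen by their difference between resting B and pro-B cells, which favours MEF in between.

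No pair passed in pro-B over MEF. The smallest unadjusted p among higher pairs belonged to FOR 399 with REV 187, FOR 186 with REV 545 and FOR 399 with REV 129, with folds of 1.69, 2.32 and 2.20 (edgeR adjusted p of 0.426 to 0.436). Among lower ones it belonged to FOR 165 with REV 410, FOR 685 with REV 125 and FOR 513 with REV 171 (adjusted p of 0.359 to 0.433). Both lists are largely pairs already named in resting B over pro-B, with which this comparison shares the pro-B libraries. For resting B over MEF, the higher pairs with the smallest p were FOR 158 with REV 435, FOR 513 with REV 171 and FOR 126 with REV 410, with folds of 2.57, 1.31 and 1.21 (adjusted p of 0.266 to 0.352).

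Finally, the sum across the V array was set against other sums of the same library. Its ratio to middle V with distal V was 0.347 and 0.415 in the resting B libraries, 0.272 and 0.349 in the pro-B libraries, and 0.307 and 0.368 in MEF, and its ratio to proximal V with middle V was 0.955 and 1.03 in the resting B libraries, 0.769 and 1.02 in the pro-B libraries, and 0.903 and 0.840 in MEF. Neither ratio passed in resting B over pro-B (log2 differences of 0.30 ± 0.38 and 0.16 ± 0.25, limma adjusted p of 0.503 and 0.611 over 44 ratios) or in resting B over MEF (0.17 ± 0.38 and 0.19 ± 0.25, adjusted p of 0.696 and 0.517). The test could therefore not tell the difference across the ends of the array from that between its other segments.

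The ratio to constant region with distal V was different. It was 0.411 and 0.460 in the resting B libraries, 1.59 and 1.53 in the pro-B libraries, and 1.32 in each MEF library. The log2 difference was -1.84 ± 0.24 for resting B over pro-B (limma adjusted p = 0.00126) and -1.60 ± 0.24 for resting B over MEF (adjusted p = 0.00243), while pro-B over MEF gave 0.24 ± 0.24 (adjusted p = 0.643). Unlike the sum itself, this ratio does not depend on library scaling. It was below 1 in both resting B libraries and above 1 in the other 4, but the 2 sums hold 675 and 888 pairs with different primers, so 1 does not mark equal contact. The sum of the constant region with distal V was itself higher in resting B cells, by 1.11 ± 0.29 over pro-B (edgeR adjusted p = 0.016) and 1.10 ± 0.29 over MEF (adjusted p = 0.00989). The sum across the array changed less, with folds of -0.72 and -0.50 that did not pass. These ratios were added after the data were seen.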

How the data were processed

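The 6 5C libraries (resting B cells, pro-B cells and MEF, 2 of each) were grouped by the titles in the labels. Each deposited file lists the authors' counts, the number of valid read pairs for each combination of primers; a combination that is not listed was set to 0. Reads were 42 bases long, per the file headers. Novoalign (no version given) and the mm9 build are named per the submitters' processing notes. No adjustment of the counts for fragment distance, primer efficiency or sequencing depth and no molecular identifier is recorded; whether amplification duplicates were removed is not stated, and intervals cover counting error only. Fragment positions are those in the primer names.

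Testing used edgeR 4.0.16 (R 4.3.3) on cis pairs that reached 10 reads in 2 or more libraries. TMM factors came from the tested pairs, the quasi-likelihood model held a mean for each cell type over the 6 libraries, and p-values were adjusted by Benjamini-Hochberg over the Igh pairs tested, with a threshold of 0.05. Sums over 45 or 55 region pairs, over 1 fragment with 1 region, over 1 region pair in a 500 kb separation bin, and over 1 fragment with the desert were tested alike on the same scale, except that desert sums had TMM factors of their own. SE is the log2 fold over the square root of F. Alternatives used DESeq2 1.42.0 and limma 3.58.1. On simulated counts (11723 pairs), 6% of 4-fold and 74% of 16-fold changes were recovered for resting B over pro-B. For resting B over MEF it was 9% and 71%, with 1 and 4 false calls in the 2 comparisons. Among 45 sums, 2-fold changes were recovered in 5 of 5, with 1 false call in each comparison. Changes of 4-fold were recovered in 5 of 5, with 2 false calls for resting B over pro-B and 6 for resting B over MEF. Simulated noise was drawn for each pair alone, without variation shared by the pairs of a library. It largely averages out in a sum, so these recoveries do not show the power of the real tests of sums.

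Region edges, members, lists and tests were chosen with earlier results of these data known. Named pairs were up to 10 per direction, ranked by p, that passed the threshold with libraries that do not overlap, the 3 with the smallest p where fewer than 3 passed, and the 5 with the highest mean CPM; named fragments were up to 5 per side past the threshold and 3 per side with the highest mean CPM. P-values measure the spread between 2 libraries per cell type.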

Additional observations from a re-analysis of the deposited data

How the results depend on the processing

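Each result was recomputed under other scalings, filters, tools and sets of libraries. Of the recomputed values of the named pairs and fragments, 676 kept their direction and side of the threshold, 164 kept the direction and lost the threshold, 46 gained it and 34 changed sign. In each case where a value below differs, the cause was not tested. For the sum over all pairs, resting B over pro-B passed when each primer pair was counted once (-0.72), without FOR 126 (-0.79) and without the 10 pairs with the most reads (-0.81). Resting B over MEF passed when each pair was counted once (-1.29), with only the 4 libraries compared (-0.53) and without FOR 126 (-0.81). It also passed relative to the reads of both regions with the gene desert (-1.42), taken as shares without TMM scaling. With desert reads as library size it turned to 0.0021. Pro-B over MEF, at 0.23 before, turned to -0.57 with each pair counted once, -1.21 relative to the desert and -0.0208 without FOR 126. For near distal V, resting B over pro-B passed without FOR 126 (-0.90) and without the top 10 pairs (-0.91); resting B over MEF passed with each pair counted once (-1.18), with 4 libraries (-0.41), relative to the desert (-1.31) and without FOR 126 (-0.73), and turned to 0.11 with desert reads as library size; pro-B over MEF turned to -0.50 with each pair counted once and -1.14 relative to the desert. For far distal V, resting B over pro-B passed with the distance decay removed (-1.85) and each pair counted once (-0.77); resting B over MEF passed with each pair counted once (-1.44), with 4 libraries (-0.75), relative to the desert (-1.60) and without FOR 126 (-0.94); pro-B over MEF turned to -0.67 with each pair counted once, -1.29 relative to the desert and -0.35 without FOR 126.

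Leaving out 1 library at a time, the sum ranged from -1.02 to -0.38 for resting B over pro-B, from -0.63 to -0.36 for resting B over MEF and from -0.13 to 0.51 for pro-B over MEF. For near distal V these ranges were -0.98 to -0.37, -0.51 to -0.25 and -0.0175 to 0.59, and for far distal V -1.11 to -0.39, -0.89 to -0.53 and -0.33 to 0.38.

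Lower pairs of resting B over pro-B numbered 132 with DESeq2, 69 with the distance decay removed, 21 with desert reads and 24 with total Igh reads as library size, 0 with 4 libraries and 6 with the replicate block, and from 0 to 205 with 1 library left out. Higher ones numbered 15 with DESeq2, 6 with desert reads, 5 with total Igh reads, 0 with 4 libraries, 0 with the replicate block, and 0 to 115 with 1 library left out. Lower pairs of resting B over MEF numbered 4 with at least 50 reads in 2 libraries, 68 with DESeq2, 2 with the distance decay removed, 0 with desert reads or total Igh reads as library size, 3 with no filter, 141 with 4 libraries, 0 with the replicate block, and 0 to 149 with 1 library left out; higher ones numbered 4 with 4 libraries and 0 to 4 with 1 library left out. In pro-B over MEF DESeq2 gave 1 higher and 3 lower, and leaving out 1 library 0 to 48 higher and 0 to 143 lower.

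Lower fragments across the array numbered 8 with desert reads and 18 with total Igh reads in resting B over pro-B (0 to 52 with 1 library left out; higher 0 to 8), and 2 with desert reads, 10 with total Igh reads and 48 with 4 libraries in resting B over MEF (1 to 47 with 1 library left out; higher 2 with 4 libraries and 0 to 2 with 1 left out). In pro-B over MEF leaving out 1 library gave 0 to 20 higher and 0 to 8 lower. Lower separation bins numbered 0 with desert reads, total Igh reads or 4 libraries and 3 without FOR 126 in resting B over pro-B (0 to 4 with 1 library left out), and 3 with 4 libraries or without FOR 126 in resting B over MEF (0 to 3); pro-B over MEF gave 0 to 1 higher. With the gene desert, total reads between chromosomes as library size gave 31 higher fragments in pro-B over MEF; leaving out 1 library gave 0 to 4 higher and 0 to 3 lower there, 0 to 9 lower in resting B over MEF, and 0 to 22 lower and 0 to 5 higher in resting B over pro-B.

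The replicate numbers name libraries and no label ties them to a shared animal or day. Deviations of same-numbered libraries correlated with 0.05, -0.01 and -0.03 over 11940 Igh pairs. With the replicate block the sum gave -0.71 for resting B over pro-B, -0.51 for resting B over MEF and 0.19 for pro-B over MEF, none past the threshold.

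Named fragments and pairs whose sign changed were the following. FOR 126 across the array ranged from -0.21 to 1.17 (pro-B over MEF), -0.23 to 0.22 (resting B over MEF) and -1.18 to 0.21 (resting B over pro-B) with 1 library left out, and in resting B over MEF gave -0.0201 with 4 libraries and -0.0571 with the block. In pro-B over MEF with 1 library left out, the ranges were -0.35 to 0.0797 for FOR 147, -1.46 to 0.33 for REV 435, -0.15 to 0.62 for REV 545, -0.34 to 1.70 for FOR 126 with REV 403, -1.61 to 0.36 for FOR 126 with REV 435, -0.24 to 0.64 for FOR 126 with REV 499, -0.56 to 0.83 for FOR 126 with REV 545 and -1.64 to 2.13 for FOR 661 with REV 129. With desert reads as library size, pro-B over MEF gave 0.10 for FOR 147, 0.18 for REV 435, 0.18 for FOR 126 with REV 435 and 0.31 for FOR 661 with REV 129, and with the distance decay removed 0.19 and 0.22 for these pairs. Between resting B and pro-B cells, FOR 126 with REV 403 ranged from -0.98 to 1.06 and FOR 126 with REV 545 from -0.14 to 1.26 (-0.40 with the distance decay removed). In resting B over MEF, FOR 399 ranged from -1.29 to 0.0907 and REV 545 from -0.47 to 0.0564 (0.33 with desert reads, 0.0589 with total Igh reads), and FOR 126 with REV 499 gave 0.17 with desert reads.

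With 2 libraries per cell type, changes under 4-fold in single pairs are mostly out of reach. The spread within pro-B cells, whose replicates differ most, enters every comparison through the shared fit, and leaving out either pro-B library raised the counts of lower pairs in both comparisons of resting B cells.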
